A study of Homo sapiens with 6 samples.

Results

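The MYC network is a set of basic helix-loop-helix leucine zipper transcription factors, and 10 of its genes were examined: MYC, MAX, MXD1, MXI1, MXD3, MXD4, MNT, MGA, MLX and MLXIP. They were taken by gene symbol from the 23152 genes of the deposited count table, with no cut on their values. Earlier results of these data were known when the genes were chosen. All 10 were in the table and all 10 passed edgeR's filter on low counts, which left 14467 genes for the test. RNA was sequenced from 3 vector samples and 3 samples overexpressing RNF112 (oeRNF112) of T24, an established human bladder cancer cell line. Both groups share the cell line and its culture conditions and differ in whether they received the vector or overexpressed RNF112, a RING-type E3 ubiquitin ligase. The deposited treatment protocol speaks of siRNA, which the sample names do not, and whether these cells carried the construct transiently or stably is not given in the sources used here. The samples used here include none with an inactive RNF112, so the enzyme's activity and the presence of its mRNA cannot be told apart. The study concerns the c-Myc protein as a substrate of RNF112, and the comparison here asks how the mRNAs of MYC, its partner and its competitors stood when RNF112 was raised.

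MYC and its relatives bind DNA as dimers. MYC pairs with MAX, occupies E-box sequences in promoters and raises transcription of genes for growth, ribosome production and nucleotide synthesis. The MXD proteins and MNT compete for the same MAX and the same E-boxes and recruit SIN3 and histone deacetylases, which lower transcription. MGA pairs with MAX inside a Polycomb complex, while MLX pairs with MLXIP (MondoA), a sensor of glucose-derived metabolites, and with some of the repressors. MXD1 is known for rising as cells leave the cycle and differentiate, and MXD3 for its expression in S phase of dividing cells.

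RNF112 had between 19 and 27 counts in the vector samples and between 29753 and 36963 in oeRNF112, so all 6 libraries followed their labels. Total counts ranged from 40029547 to 41259569 per sample. The keratins KRT7, KRT8 and KRT18 and the mesenchymal gene VIM were abundant in every sample. EPCAM, another epithelial marker, had 66 to 99 counts in vector and 143 to 183 in oeRNF112. The 6 epithelial markers summed to between 1795 and 2231 RPKM in vector and between 1460 and 1699 RPKM in oeRNF112. Of the 5 tested, 1 was higher, 2 were lower and 2 did not pass, with a median log2 fold change of -0.33. The urothelial genes UPK1A, UPK2 and UPK3A had at most 20 counts and the epithelial gene CDH1 at most 1. Other urothelial markers differed from these, with PPARG at 2056 to 2485 counts, GATA3 at 117 to 173 and TP63 at most 2. The summed level of 4 endothelial markers reached at most 0.0995 RPKM, and that of 5 fibroblast markers at most 2.21 RPKM. The 6 leukocyte markers in the table summed to between 17.3 and 18.5 RPKM in vector and between 33.2 and 40.8 RPKM in oeRNF112. CD68, which other cells express too, made most of this sum, with 870 to 987 counts in vector and 2103 to 2645 in oeRNF112, while LAPTM5, the next most abundant, had 231 to 293 counts in vector and 108 to 215 in oeRNF112. Of the 5 leukocyte markers tested, 1 was higher, 1 was lower and 3 did not pass, with a median log2 fold change of -0.58. The defining marker PTPRC had 24 to 54 counts in all samples and CD3E was at 0 in 5 of 6 samples. The part of these markers in the results below was not tested.

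Repressors of the MXD group moved in opposite directions while MYC mRNA stayed nearly level. MXD1 was higher in oeRNF112 and MXD3 and MXD4 were lower, at an adjusted p under 0.05 from edgeR's quasi-likelihood test with Benjamini-Hochberg adjustment over all genes. That is 1 gene of 10 higher and 2 lower, where 9.97% of all genes tested were higher, 8.14% lower and 18.1% either. Their median log2 fold change was -0.055, beside 0.0027 for all genes tested. For 7 of the 10 genes the normalized values of vector and oeRNF112 were separate, 3 higher and 4 lower in oeRNF112, beside 36.8% of all genes (18.9% higher and 17.9% lower). Levels per sample are given below in CPM (counts scaled to library size with edgeR's TMM factors), and in RPKM, which also divides by gene length, where genes are compared with each other. The count of 7 separate genes is for CPM. In the deposited RPKM, which are scaled by library totals, MYC and MLXIP overlapped between the groups. Bulk RNA does not tell fewer cells that express a gene from less mRNA in each cell. Replicates are separate samples by their labels, but nothing says that they were separate cultures, so p-values measure the spread between these samples, which may be technical.

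**Figure D1:**
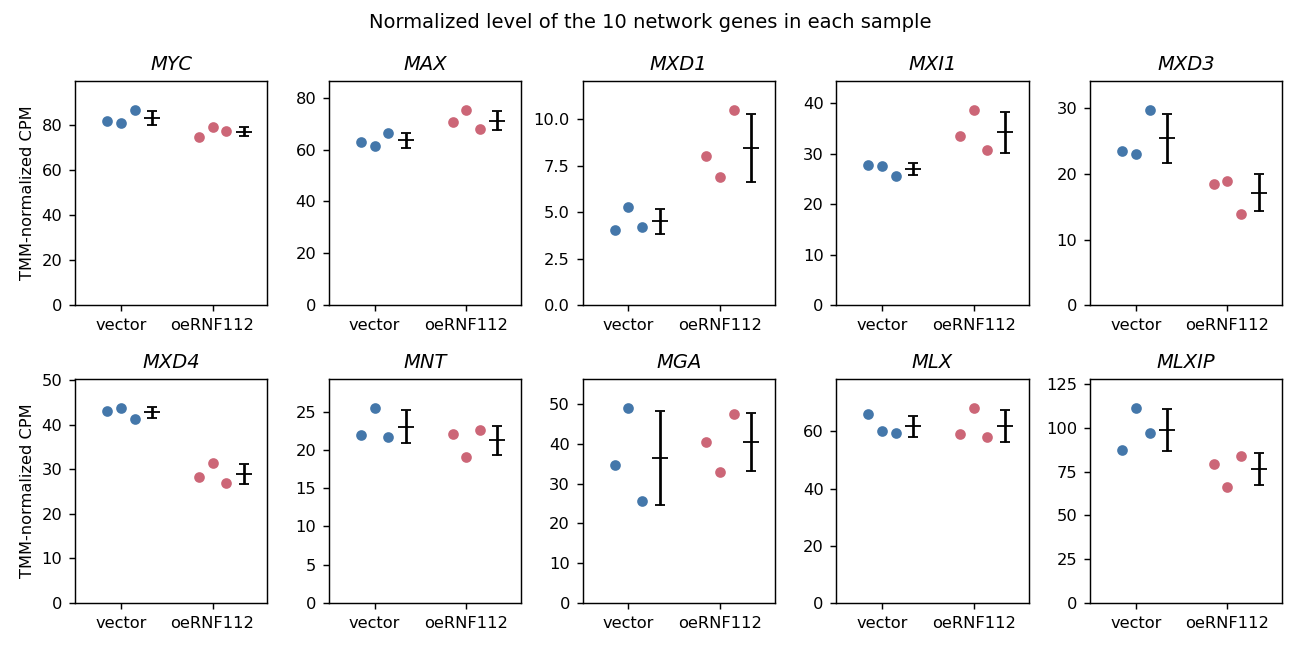
Each panel shows the TMM-normalized CPM of a network gene in the 3 vector (blue) and 3 oeRNF112 (red) samples, with the group mean and its SD in black and an axis that starts at 0. MXD1, MXI1 and MAX lie higher in each oeRNF112 sample than in each vector sample, MXD3, MXD4, MLXIP and MYC lie lower, and MNT, MGA and MLX overlap.

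MYC, the activator of the network, had 81.8, 80.6 and 86.4 CPM in vector and 74.7, 78.9 and 77.0 CPM in oeRNF112. Each oeRNF112 sample lay just under each vector sample on this scale. The log2 fold change was -0.11 ± 0.081 SE (edgeR adjusted p 0.377), and the 95% interval ran from 0.819 to 1.05 times the vector level. The deposited RPKM of MYC overlapped between the groups, at 17.4, 17.6 and 18.3 RPKM in vector and 17.1, 17.7 and 17.9 RPKM in oeRNF112, and scaling by library totals gave a log2 fold change of -0.015. MYC passed the threshold in 0 of 16 alternative fits, with adjusted p-values from 0.351 to 0.911.

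The MYC paralogs were almost silent. MYCN, the neuronal form, had 1 count in vector replicate 1 and 0 in the other 5 samples, where a count of 0 allows up to 3 reads by counting error alone. MYCL, the form first found in lung cancer, had 10, 7 and 10 counts in vector and 28, 23 and 26 counts in oeRNF112. MYCL rose (log2 fold change 1.42 ± 0.35 SE, edgeR adjusted p 0.0222), yet its mean of 0.616 CPM in oeRNF112 remained far under the 76.9 CPM of MYC. The call was lost without vector replicate 1, vector replicate 2, oeRNF112 replicate 1 or oeRNF112 replicate 3 (adjusted p 0.0697, 0.0588, 0.0846 and 0.0727). It was also lost with the replicate number as a block in edgeR (adjusted p 0.0808).

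MAX, the partner that MYC, the MXD proteins, MNT and MGA all use, had 62.8, 61.2 and 66.6 CPM in vector and 70.5, 75.2 and 68.0 CPM in oeRNF112. The groups were separate, but the difference was small. The log2 fold change was 0.17 ± 0.086 SE (edgeR adjusted p 0.208), with a 95% interval of 0.982 to 1.28 times vector. Over the alternatives the adjusted p ranged from 0.0336 to 0.508, and MAX passed in the 3 limma fits on RPKM. The ratio of MYC to MAX, which no scaling of the libraries can alter, was 0.926 ± 0.0068 in vector and 0.767 ± 0.032 in oeRNF112 (RPKM, mean ± SD, n = 3). Its values were 0.925, 0.934 and 0.920 in vector and 0.752, 0.745 and 0.804 in oeRNF112, so the groups were separate.

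MXD1, the repressor first described as MAD1, showed the largest rise of the 10 genes by its fold change. Its level was 4.07, 5.30 and 4.20 CPM in vector and 8.03, 6.88 and 10.5 CPM in oeRNF112. The lowest oeRNF112 sample stood above the highest vector sample, and oeRNF112 replicate 3 was above the others of its group. MXD1 was 1.87 times vector with a 95% interval of 1.41 to 2.48 (log2 fold change 0.90 ± 0.18 SE, edgeR adjusted p 0.00934). The call held in 15 of 16 alternatives, with adjusted p-values from 9.27e-05 to 0.0543, and was lost without vector replicate 1 (adjusted p 0.0543). SNRNP27 on the same strand shares 3.73% of the exonic bases of MXD1 in GENCODE 29. Counts of SNRNP27 were 1388, 1294 and 1347 in vector and 1625, 1747 and 1650 in oeRNF112. The part of shared reads in the MXD1 value was not tested.

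MXI1, a repressor of the same group that hypoxia induces, lay at the edge of the threshold. It had 27.7, 27.6 and 25.6 CPM in vector and 33.5, 38.6 and 30.7 CPM in oeRNF112. All oeRNF112 samples were above all vector samples. The log2 fold change of MXI1 was 0.34 ± 0.11 SE (edgeR adjusted p 0.0506), with a 95% interval before adjustment of 1.08 to 1.5 times vector. The adjusted p was under 0.05 in 8 of 16 alternatives, over a range from 0.0188 to 0.187. The table counts reads per gene, so isoforms of MXI1 that start at different promoters were not separated.

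MXD3 went the other way. Its level was 23.6, 23.1 and 29.7 CPM in vector and 18.6, 19.0 and 13.9 CPM in oeRNF112, with vector replicate 3 the highest and oeRNF112 replicate 3 the lowest sample. The groups were separate. MXD3 was at 0.674 of vector with a 95% interval of 0.538 to 0.844 (log2 fold change -0.57 ± 0.15 SE, edgeR adjusted p 0.0253). The call held in 10 of 16 alternatives, over a range of adjusted p-values from 0.00316 to 0.105. It was lost without vector replicate 1, vector replicate 3, oeRNF112 replicate 1 or oeRNF112 replicate 3 (adjusted p 0.0689, 0.0725, 0.0586 and 0.0755). It was also lost with the replicate number as a block in edgeR (adjusted p 0.105) and with limma on log2(RPKM + 1) (adjusted p 0.0553). In GENCODE 29, RAB24 on the same strand shares 18.0% of the exonic bases of MXD3 and PRELID1 on the opposite strand 22.5%. Counts of RAB24 were 1076, 979 and 1259 in vector and 1258, 1184 and 992 in oeRNF112, and counts of PRELID1 were 6339, 5523 and 7133 in vector and 6090, 6829 and 5744 in oeRNF112. The library kit keeps strand, but whether the counting used it is not given in the sources used here, and the part of shared reads in the MXD3 value was not tested.

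MXD4, a repressor known from differentiating cells, fell by almost the same fold with less spread. It had 43.1, 43.8 and 41.4 CPM in vector and 28.3, 31.4 and 27.0 CPM in oeRNF112. The gap between the groups was wider than the spread within either. MXD4 was at 0.676 of vector with a 95% interval of 0.585 to 0.781 (log2 fold change -0.57 ± 0.094 SE, edgeR adjusted p 0.00356). The call held in 16 of 16 alternatives, with adjusted p-values from 4.43e-06 to 0.0394. As a background to these counts of alternatives, edgeR called 18.1% of all genes in either direction with DESeq2 size factors, 18.5% with library totals, 17.1% with upper quartile factors, 11.2% without a filter, 18% at 10 or more counts in every sample and 6.06% with a replicate block. Without vector replicate 1, 2 or 3 the share was 7.18%, 23% and 13.1%, and without oeRNF112 replicate 1, 2 or 3 it was 8.59%, 15.9% and 9.84%. DESeq2 called 22.4%, and limma called 17.5%, 18% and 18.4% on log2(RPKM + 1), on log2(RPKM + 0.1) and on genes of mean RPKM of at least 1.

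**Figure D2:**
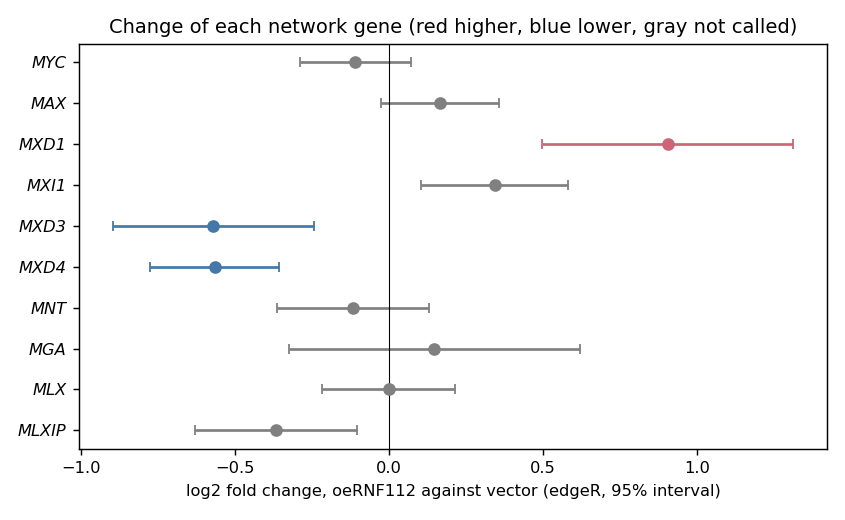
Points give the log2 fold change of each network gene in oeRNF112 against vector from edgeR, with its 95% interval before adjustment. MXD1 is the called gene above 0, MXD3 and MXD4 are the called genes below 0, and the interval of MYC runs from -0.29 to 0.071.

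Because genes of the same MXD group moved apart, the promoters of all 4 are shown. Each sequence is the 250 bases before the gene's start in RefSeq (GRCh38.p14), written 5′ to 3′ on the strand of the gene. Capitals mark the E-box CACGTG, the CCAAT box (CCAAT, or ATTGG on the other strand) and the GC box (GGGCGG, or CCGCCC on the other strand), and matches of different motifs overlapped in 0 windows. MXD1 is at chr2:69914859-69915108 on the plus strand. MXI1 is at chr10:110207355-110207604 on the plus strand, for the most upstream of its 3 starts. MXD3 is at chr5:177312753-177313002 and MXD4 at chr4:2262110-2262359, both on the minus strand.
MXD1: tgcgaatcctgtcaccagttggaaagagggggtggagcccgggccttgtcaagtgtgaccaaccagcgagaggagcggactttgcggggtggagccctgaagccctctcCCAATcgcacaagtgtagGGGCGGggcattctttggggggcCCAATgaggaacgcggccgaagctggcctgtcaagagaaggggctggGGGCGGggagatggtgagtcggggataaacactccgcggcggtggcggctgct
MXI1: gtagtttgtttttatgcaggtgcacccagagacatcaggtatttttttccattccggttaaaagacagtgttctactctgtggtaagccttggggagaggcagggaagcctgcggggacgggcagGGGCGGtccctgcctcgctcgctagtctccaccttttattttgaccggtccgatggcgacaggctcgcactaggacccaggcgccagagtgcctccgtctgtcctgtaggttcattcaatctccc
MXD3: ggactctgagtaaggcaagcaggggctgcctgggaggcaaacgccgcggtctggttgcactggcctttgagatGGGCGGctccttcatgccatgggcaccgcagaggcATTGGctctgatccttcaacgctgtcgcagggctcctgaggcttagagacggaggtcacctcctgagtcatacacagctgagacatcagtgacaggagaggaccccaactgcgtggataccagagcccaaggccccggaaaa
MXD4: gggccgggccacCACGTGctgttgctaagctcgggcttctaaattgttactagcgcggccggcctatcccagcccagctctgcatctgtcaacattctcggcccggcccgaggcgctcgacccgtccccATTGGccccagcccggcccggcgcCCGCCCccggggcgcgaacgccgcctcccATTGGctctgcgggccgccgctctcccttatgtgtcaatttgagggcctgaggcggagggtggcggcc

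The MXD4 promoter held a CACGTG E-box, which began 238 bases before the start, and the MXD1, MXI1 and MXD3 windows held none. MXD1 held 2 CCAAT boxes and 2 GC boxes, MXD4 held 2 CCAAT boxes and 1 GC box, and MXD3 held 1 of each. The 3 windows of MXI1 together held 8 GC boxes and no CCAAT box. RefSeq windows were found for 9 of the 10 genes, 14 windows in all, with none for MYC. A CACGTG E-box stood in 3 of these 14 windows, those of MXD4, MNT and MLX, while 6.34% of all 35116 windows of this length held it. CCAAT boxes occurred in 32.0% and GC boxes in 42.6% of all windows. The E-boxes of MNT (chr17:2401061-2401310, minus strand) and MLX (chr17:42566850-42567099, plus strand) began 193 and 50 bases before the start and are shown with their flanks, CACGTG in capitals.
MNT: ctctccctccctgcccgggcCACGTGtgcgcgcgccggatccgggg
MLX: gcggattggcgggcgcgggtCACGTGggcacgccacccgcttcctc
Of the 3 genes with this E-box, MXD4 was lower in oeRNF112, and MNT and MLX did not pass the threshold. A match describes the letters in the window, and binding was not measured in these samples.

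Set side by side per length, the makeup of the MXD mRNAs shifted. In deposited RPKM, which are scaled by library totals, the 4 mRNAs summed to 26.4, 27.4 and 27.5 RPKM in vector and 25.0, 26.6 and 22.9 RPKM in oeRNF112, and these sums overlapped. With RPKM scaled by the TMM factors, an alternative added after seeing the data, the sums were 27.6, 27.7 and 28.7 in vector and 24.1, 26.2 and 21.8 in oeRNF112 and did not overlap, so whether the sum was lower depends on the scaling. MXD1 and MXI1 together made up 28.8, 29.4 and 25.8 percent of the sum in vector and 42.1, 43.1 and 45.2 percent in oeRNF112. The groups were separate, and such a share does not depend on how the libraries were scaled. MXD1 and MXI1 had positive log2 fold changes and MXD3 and MXD4 negative ones. A higher joint share thus follows from this choice of pair and adds no support. MXI1 alone made up 25.1 ± 1.7 percent in vector and 37.0 ± 1.2 percent in oeRNF112 (mean ± SD, n = 3). MXD1 made up 2.91 ± 0.46 and 6.46 ± 2.0 percent, so in level MXI1 took up more of the shift than MXD1. MXD3 went from 32.6 ± 4.0 to 25.5 ± 2.4 percent and MXD4 from 39.5 ± 2.0 to 31.1 ± 0.80 percent. The most abundant of the 4 was MXD4 on average in vector and MXI1 in every oeRNF112 sample. The ratio of MYC to the sum of the MXD genes and MNT was 0.605, 0.585 and 0.614 in vector and 0.623, 0.618 and 0.702 in oeRNF112. These groups touched without overlapping, and oeRNF112 replicate 3 stood higher than the rest. No test was run on these sums and ratios.

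**Figure D3:**
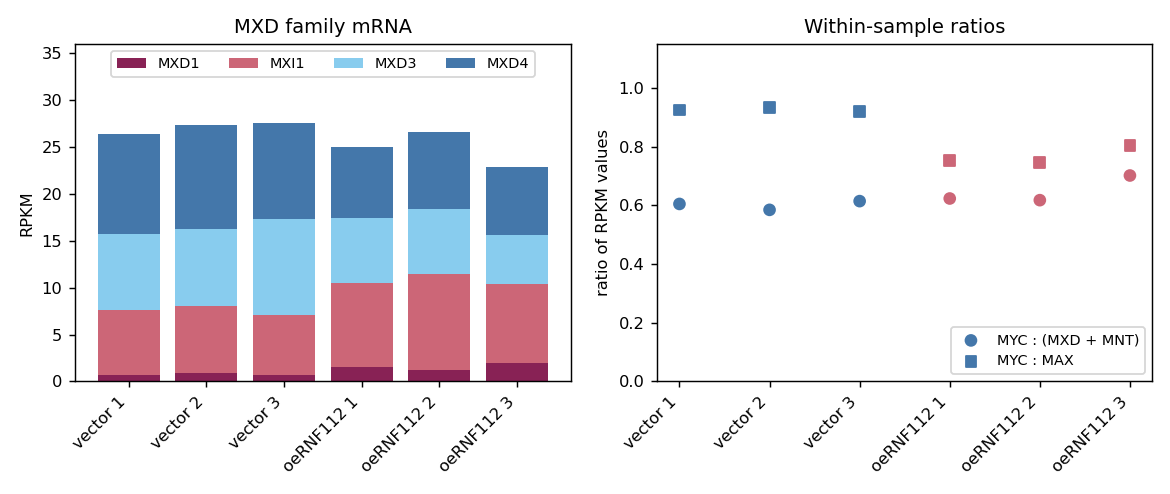
The left panel stacks the deposited RPKM of MXD1, MXI1, MXD3 and MXD4 in each sample, with sums between 22.9 and 27.5. The right panel gives, per sample, the ratio of MYC to the MXD genes plus MNT (circles) and of MYC to MAX (squares), vector in blue and oeRNF112 in red, and the squares lie near 0.926 in vector and near 0.767 in oeRNF112.

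MNT and MGA, the larger repressors, did not pass the threshold. MNT, often described as a constant counterweight to MYC in dividing cells, had 21.9, 25.5 and 21.7 CPM in vector and 22.1, 19.1 and 22.6 CPM in oeRNF112. The groups overlapped, with a log2 fold change of -0.12 ± 0.11 SE (edgeR adjusted p 0.494) and a 95% interval of 0.778 to 1.09 times vector. MGA, the scaffold of the Polycomb complex PRC1.6, had 34.8, 49.0 and 25.6 CPM in vector and 40.6, 33.0 and 47.6 CPM in oeRNF112. The groups overlapped, and vector replicate 3 was the lowest of all 6 samples. The log2 fold change was 0.15 ± 0.21 SE (edgeR adjusted p 0.662) with a 95% interval of 0.798 to 1.54 times vector, and without vector replicate 3 it was -0.050. A change of MGA of any size within that interval remains compatible with these samples.

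MLX and MLXIP form the branch that senses glucose metabolites. MLX, the shared partner of that branch, had 66.1, 60.2 and 59.3 CPM in vector and 59.0, 68.2 and 58.2 CPM in oeRNF112. The groups overlapped, and the log2 fold change was -0.00097 ± 0.097 SE (edgeR adjusted p 0.996), with a 95% interval of 0.861 to 1.16 times vector. Its sign depends on the scaling, and library totals gave 0.092. PSMC3IP on the opposite strand shares 18.1% of the exonic bases of MLX, and its counts were 1349, 1274 and 1493 in vector and 1947, 2114 and 1895 in oeRNF112. The part of shared reads in the MLX value was not tested.

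MLXIP, the MondoA subunit, had 87.6, 111 and 96.9 CPM in vector and 79.1, 66.4 and 83.9 CPM in oeRNF112. Every oeRNF112 sample was below every vector sample on this scale, but the spread within groups was wide. The deposited RPKM of MLXIP overlapped, at 9.67, 12.7 and 10.7 RPKM in vector and 9.44, 7.76 and 10.1 RPKM in oeRNF112. The log2 fold change was -0.37 ± 0.12 SE (edgeR adjusted p 0.0575), with a 95% interval before adjustment of 0.646 to 0.931 times vector. It passed in 1 of 16 alternatives, the DESeq2 test, over a range of adjusted p-values from 0.0260 to 0.202. MLXIPL (ChREBP), the other partner of MLX, reached 4 counts at most and was not tested.

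Targets of the MLX branch were measured as well. Of 6 listed symbols, with G6PC1 and its older symbol G6PC counted apart, 3 were tested, of which 2 were higher and 1 did not pass. Among all genes tested, 9.97% were higher and 18.1% were called in either direction. ARRDC4, an arrestin that limits glucose uptake, had 463, 565 and 475 counts in vector and 909, 822 and 900 counts in oeRNF112. It rose (log2 fold change 0.73 ± 0.11 SE, edgeR adjusted p 0.00223) in 16 of 16 alternatives. KLF10, a Kruppel-like repressor, rose too (log2 fold change 0.41 ± 0.10 SE, edgeR adjusted p 0.0204), and this call was lost without vector replicate 1, vector replicate 3 or oeRNF112 replicate 3 (adjusted p 0.0726, 0.0527 and 0.0770). With a replicate block in edgeR the KLF10 call was lost too (adjusted p 0.122). TXNIP, the best known MondoA target, had 14854, 13198 and 12117 counts in vector and 15926, 18915 and 15180 counts in oeRNF112. Its log2 fold change was 0.24 (edgeR adjusted p 0.173), and its normalized values overlapped between the groups.

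Ordered by RPKM in vector, MLX stood first at 23.7 ± 1.3 (mean ± SD, n = 3), followed by MAX at 19.2 ± 0.62 and MYC at 17.8 ± 0.48. MLXIP at 11.0 ± 1.5 and MXD4 at 10.7 ± 0.47 came next and overlapped. MXD3 at 8.83 ± 1.2 and MXI1 at 6.79 ± 0.38 followed without overlap. MGA at 2.80 ± 0.96 and MNT at 2.43 ± 0.27 overlapped, and MXD1 was last at 0.790 ± 0.13. In oeRNF112 the same genes held the top places down to MYC and the bottom places from MGA on. MXI1 moved from the seventh place to the fourth, at 9.19 ± 0.92 RPKM, beside MLXIP at 9.11 ± 1.2 RPKM. MXD1, although 1.87 times higher, remained the least abundant at 1.58 ± 0.37 RPKM.

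**Figure D4:**
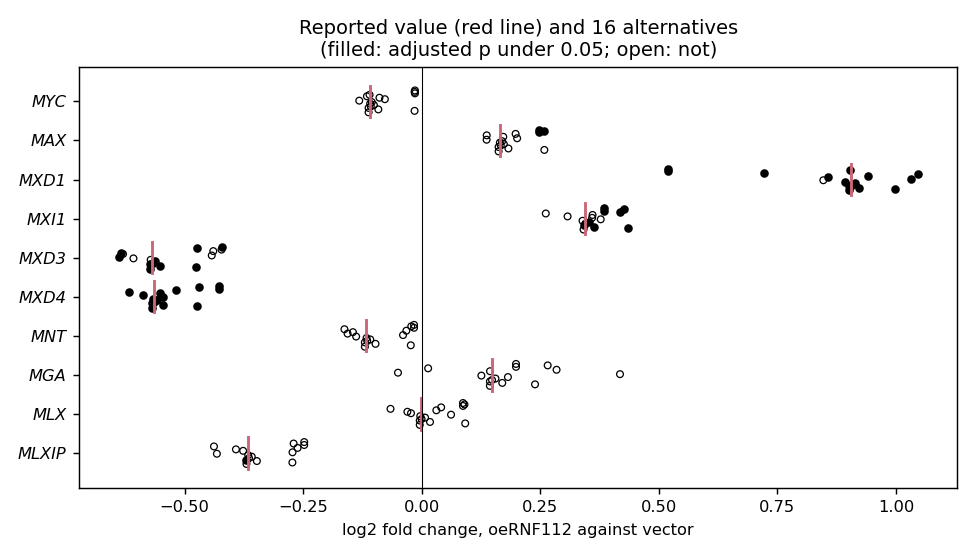
For each network gene, the red line is the reported log2 fold change and the points are the 16 alternative fits, filled where the adjusted p is under 0.05 and open elsewhere. MXD4 is filled in all 16, MXD1 in 15, MXD3 in 10 and MXI1 in 8, and MYC is open throughout.

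The cofactors that the network recruits were read from lists written by hand. Of 18 genes of the SIN3, histone deacetylase and NCOR corepressors, which the MXD proteins and MNT bring to DNA, 0 passed edgeR's threshold in either direction, 4 had an unadjusted p under 0.05, and DESeq2 called 1 lower. Their median log2 fold change was -0.041. Among all genes tested, edgeR called 18.1% in either direction and DESeq2 called 22.4%. The smallest p-values belonged to the histone-binding proteins RBBP7 (log2 fold change -0.27, adjusted p 0.0505) and RBBP4 (-0.19, adjusted p 0.111) and the deacetylase HDAC1 (-0.25, adjusted p 0.0856).

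Of 17 coactivators of MYC, 2 were lower and 15 did not pass, with a median log2 fold change of -0.19. Among all genes tested, 8.14% were lower and 18.1% were called in either direction. SMARCB1, a subunit of the SWI/SNF chromatin remodeler that binds MYC, had 2999, 2955 and 3443 counts in vector and 2023, 2132 and 1973 counts in oeRNF112. It fell (log2 fold change -0.70 ± 0.10 SE, edgeR adjusted p 0.00182) in 16 of 16 alternatives. KAT5 (TIP60), an acetyltransferase, fell as well (log2 fold change -0.41 ± 0.098 SE, edgeR adjusted p 0.0184), a call lost without vector replicate 1, oeRNF112 replicate 1 or oeRNF112 replicate 3 (adjusted p 0.0710, 0.0916 and 0.0683). With a replicate block in edgeR the KAT5 call was lost too (adjusted p 0.123). RUVBL2, an ATPase of the TIP60 complex, had a log2 fold change of -0.37 (edgeR adjusted p 0.0548).

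Textbook targets of MYC moved in both directions. Of 29 tested genes that MYC is known to activate, 3 were higher, 5 were lower and 21 did not pass, with a median log2 fold change of -0.087 beside 0.0027 for all genes. Over all genes tested, 9.97% were higher, 8.14% lower and 18.1% either. With single samples left out, between 2 and 4 were higher and between 2 and 7 lower. ODC1, the first enzyme of polyamine synthesis, had 6738, 5660 and 6751 counts in vector and 11010, 12969 and 10604 counts in oeRNF112, a log2 fold change of 0.77 ± 0.12 SE (edgeR adjusted p 0.00225). TERT, the telomerase catalytic subunit, had 62, 82 and 102 counts in vector and 243, 153 and 259 counts in oeRNF112 and rose (log2 fold change 1.33 ± 0.25 SE, edgeR adjusted p 0.00626). UBTF, which drives ribosomal RNA transcription, had 4381, 4537 and 4368 counts in vector and 3399, 2883 and 3250 counts in oeRNF112 and fell (log2 fold change -0.56 ± 0.087 SE, edgeR adjusted p 0.00269). These 3 calls held in every alternative that tested the gene. The other 5 calls were less steady. ID2, an inhibitor of differentiation, was higher (log2 fold change 1.22, adjusted p 0.0161, called in 15 of 16 alternatives). IMPDH2 (-0.53, adjusted p 0.00819), APEX1 (-0.40, adjusted p 0.0114), PTMA (-0.41, adjusted p 0.0208) and NCL (-0.28, adjusted p 0.0488) were lower, and these calls held in 15 of 16, 13 of 16, 8 of 16 and 3 of 16 alternatives.

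Of 13 genes known to be repressed by MYC, with the cofactor MIZ1 (ZBTB17) included, 3 were higher and 10 did not pass, and the median log2 fold change was 0.0023. Over all genes tested, 9.97% were higher and 18.1% were called in either direction. NDRG1, a stress-induced growth suppressor, had 13670, 13220 and 10742 counts in vector and 39572, 52169 and 30108 counts in oeRNF112, a log2 fold change of 1.62 ± 0.19 SE (edgeR adjusted p 0.000623). GADD45A, a DNA damage response gene, had 3836, 3197 and 4223 counts in vector and 7005, 8236 and 7878 counts in oeRNF112 and rose (log2 fold change 0.96 ± 0.12 SE, edgeR adjusted p 0.00102). CDKN1A, the p21 inhibitor of cyclin-dependent kinases, had 2505, 2278 and 2614 counts in vector and 4499, 4886 and 4766 counts in oeRNF112 and rose (log2 fold change 0.85 ± 0.093 SE, edgeR adjusted p 0.000463). In each of these 3 genes the oeRNF112 samples were all above the vector samples, and the calls held in all 16 alternatives.

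**Figure D5:**
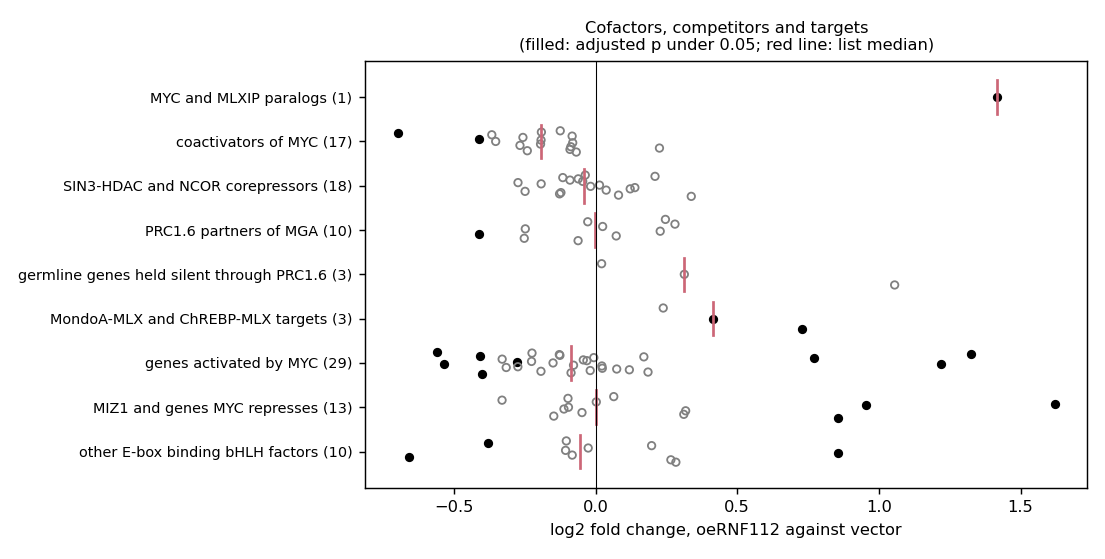
Points are the log2 fold changes of the tested genes of each list, filled where the adjusted p is under 0.05, with the list median as a red line and the number of genes tested in brackets. The corepressor list has 0 filled points among 18, and the list of genes activated by MYC has filled points on both sides of 0.

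The genes whose pattern over the 6 samples was most like that of MYC were GOT2, CLU and SUPT5H, by the root mean square difference of log2 CPM after each gene was centred on its own mean. The differences were 0.0081, 0.018 and 0.019, while the median over all genes tested was 0.20. MYC spanned 0.21 on the log2 scale over the 6 samples, so these genes also stayed nearly level. GOT2, the mitochondrial aspartate aminotransferase, had a log2 fold change of -0.12 beside -0.11 for MYC. CLU, which also stands in the list of genes known to be repressed by MYC, had -0.11 (edgeR adjusted p 0.472).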

How the data were processed

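Stranded mRNA libraries were made from total RNA of T24 cells. The submitters' processing notes name Trimmomatic 0.36, featureCounts with Subread 1.5.1, and GRCh38. Aligner, annotation and strand setting are not given in the sources used here. The authors deposited raw counts per gene, and RPKM values that match those counts scaled by the sum of each column and 1 length per gene (20637 of 20637 genes, tolerance 0.001). Counts of 3 vector and 3 oeRNF112 samples (40029547 to 41259569 per sample) were tested with edgeR 4.0.16 in R 4.3.3, with its default filter, TMM factors, the quasi-likelihood test and Benjamini-Hochberg adjustment over 14467 genes (threshold 0.05). The standard error was the log2 fold change divided by the square root of F, and 95% intervals are unadjusted. Code was tested on simulated data. The 16 alternatives were DESeq2 1.42.0, other size factors (DESeq2's, library totals, upper quartile), other filters, a replicate block, leaving out each sample, and limma 3.58.1 on log2(RPKM + 1) and log2(RPKM + 0.1).

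Named genes were the 10 network genes, RNF112, the 3 genes with the smallest p in each list and the 3 nearest to MYC. Genes that share exons with network genes, untested list members, the other called MYC targets and the cell type markers were named after their values were seen. The network genes and the lists were chosen with earlier results of these data known. For a count of 0 the upper limit is 3 reads, for counting error only.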

Additional observations from a re-analysis of the deposited data

How the results depend on the processing

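Scaling by library totals shifted the median log2 fold change over all genes from 0.0027 to 0.096 and the higher share of called genes from 55.0% to 75.4% (2020 higher, 659 lower). Lower genes numbered 1178 as reported, and 669, 682 and 603 with limma on log2(RPKM + 1), on log2(RPKM + 0.1) and at a mean RPKM of at least 1. Of the network genes, 2 were higher with library totals, upper quartile factors, DESeq2 or 10 counts in every sample, and 3 in each limma fit, against 1 as reported. With limma on log2(RPKM + 1), 1 was lower, against 2. DESeq2 called MLXIP lower (adjusted p 0.0260) besides MXD3 and MXD4. MLX lay above 0 with library totals (0.092), upper quartile factors (0.018), 10 counts in every sample (0.0071) and the limma fits (0.087, 0.090 and 0.087). The cause was not tested.

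A replicate block called 618 genes higher and 258 lower, with 1 network gene lower in place of 2. Of the genes named by rule, MXD3, MYCL, KAT5, L3MBTL2, KLF10 and USF1 lost their call under the block (adjusted p 0.105, 0.0808, 0.123, 0.130, 0.122 and 0.179). Deviations of samples that share a number had correlations of -0.116, -0.363 and -0.296, so no pairing was assumed.

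Leaving out single samples gave 702 higher and 359 lower genes without vector replicate 1, and 1841 and 1546 without vector replicate 2, as the extremes. Network genes called ranged from 0 to 2 higher and from 1 to 2 lower. The MLX value ranged from -0.066 to 0.062, MGA from -0.050 to 0.42 and TDRKH from -0.015 to 0.079. Of 160 values (10 network genes, 16 alternatives), 131 kept direction and side of the threshold, 7 lost the call, 12 gained it and 10 changed sign. MXD1 rests on the fewest counts of the network genes, 161 to 444 per sample.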

Other observations

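Of 10 tested bHLH factors that read E-boxes outside the network, 1 was higher in oeRNF112, 2 were lower and 7 did not pass, where 18.1% of all genes tested were called. MITF, the melanocyte factor that also regulates lysosome genes, had 347, 392 and 353 counts in vector and 619, 656 and 816 counts in oeRNF112. It rose (log2 fold change 0.86 ± 0.13 SE, edgeR adjusted p 0.00206) in 16 of 16 alternatives. BHLHE41, a repressor of the circadian clock, had 830, 990 and 748 counts in vector and 600, 573 and 542 counts in oeRNF112. It fell (log2 fold change -0.66 ± 0.12 SE, edgeR adjusted p 0.00524) in 16 of 16 alternatives. USF1, a widely expressed E-box activator, fell (log2 fold change -0.38 ± 0.11 SE, edgeR adjusted p 0.0373), but the call held in 5 of 16 alternatives and was lost without vector replicate 1, vector replicate 3, oeRNF112 replicate 1, oeRNF112 replicate 2 or oeRNF112 replicate 3 (adjusted p 0.0628, 0.0931, 0.0661, 0.0718 and 0.135).

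Of 10 partners of MGA in PRC1.6, 1 was lower and 9 did not pass, where 8.14% of all genes tested were lower and 18.1% either. L3MBTL2, a chromatin reader of that complex, had 1380, 1508 and 1560 counts in vector and 1243, 1162 and 1128 counts in oeRNF112. It fell (log2 fold change -0.41 ± 0.097 SE, edgeR adjusted p 0.0178), and the call was lost without oeRNF112 replicate 3 (adjusted p 0.0705) and with limma on log2(RPKM + 1) (adjusted p 0.0550). With a replicate block in edgeR the L3MBTL2 call was lost too (adjusted p 0.130). CBX3 and PCGF6 had log2 fold changes of -0.25 (adjusted p 0.0902) and 0.23 (adjusted p 0.0960). Germline genes that PRC1.6 is known to keep silent were mostly too low to test, and DDX4, MAEL, STAG3, SYCP3, SLC25A31 and TAF7L had at most 7 counts in any sample. Of the 3 tested, 0 passed the threshold by edgeR or by DESeq2, and 1 had an unadjusted edgeR p under 0.05. This was MEI1, which had 15, 14 and 10 counts in vector and 27, 32 and 27 counts in oeRNF112 (log2 fold change 1.06, adjusted p 0.0505).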
